A study of Mus musculus with 2 samples.

Results

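The collagen genes of the mouse lung were followed across its structural cell classes after allergen challenge. Members were all genes of the feature table whose symbol reads Col, a number, a and a number, which gave 44 of 32285 listed genes by symbol alone. Lung cells were taken from WT mice of the C57B6/J strain and from mice labelled Plaur KO, Plaur being the gene of uPAR, the receptor of the protease urokinase. Both groups, 8 mice each by the study's design, were sensitised with LPS and ovalbumin (OVA) on days 0 and 7 and challenged with aerosolised OVA on day 14, so every animal carried the allergen exposure and no unexposed lung was compared. Cells without surface CD45.2, a leukocyte marker, were sorted and loaded on a droplet instrument that tags each RNA molecule at its 3′ end, and the labels name the material total lung cell lysate. There was 1 library per genotype, and the labels do not say how many mice entered each library or which part of Plaur was deleted. No difference between the libraries has a replicate check, so no test across samples could be made: the 95% intervals below come from counts of molecules, cover counting error only and compare 2 libraries, not 2 genotypes.

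Collagens are triple helices of 3 chains, built in the endoplasmic reticulum, hydroxylated, secreted as procollagens and assembled outside the cell. The fibrillar collagens give the lung interstitium, airway wall and vessel wall their tensile strength, the type IV collagens form the sheet-like network of basement membranes under epithelium and endothelium, and type VI forms fine beaded filaments between them. Smaller groups decorate fibrils, span the plasma membrane or sit at special interfaces. In asthma models the deposition of collagen under the airway epithelium belongs to airway remodelling.

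A unique molecular identifier (UMI) count is a count of captured RNA molecules. The WT library held 57028943 UMIs in 11776 barcodes and the KO-labelled library 51529241 UMIs in 9771 barcodes, of which 10225 and 8934 were kept, with median depths of 4837 and 5537.5 UMIs per cell. Of the barcodes, 30 occurred in both libraries, 27 of them among kept cells. Plaur mRNA was present in the library labelled as its knockout, 1755 UMIs (34.1 CPM) against 2728 (47.8 CPM) in WT over all barcodes. Within classes Plaur went both ways. It stood at 140 CPM in WT and 82.3 CPM in KO-labelled mesothelial-like cells, and at 2.22 and 17.5 CPM in alveolar type 2 (AT2)-like cells. The labels do not say whether the captured 3′ end lies in the deleted part, so these counts do not check the label. The library is called KO-labelled throughout. Classes were named from marker genes with the collagens left out, so that no class was defined by a member. Of 14 shared fibroblast markers 14 were detected in the adventitial and mixed fibroblast-like classes of both libraries. In the alveolar fibroblast-like class 13 were detected, and Lum was at 0. All 11 mesothelial and all 11 venous markers were detected in the classes named for them. Their levels were not all equal in the 2 libraries, as given below. Detected means any UMI in the class, and the same lists named the classes, so detection is no separate check of the names. Genes of other cell types differed between the libraries within a class. Sftpc, a surfactant gene of alveolar type 2 (AT2) cells, stood at 2242 UMIs per 1000000 UMIs of the class (CPM) in WT and 7296 CPM in KO-labelled mesothelial-like cells, and at 1101 and 17108 CPM in venous-like cells. The club cell gene Scgb1a1 stood at 4240 and 181 CPM in the adventitial fibroblast-like class and at 1514 and 32996 CPM in venous-like cells. Empty droplets were not analysed here, and the part of such RNA in the ratios below was not tested.

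Collagen mRNA made up 0.220% of all UMIs of kept cells in WT (111307 UMIs) and 0.121% in the KO-labelled library (59898 UMIs). The sets differed. Over the whole library the 11 fibrillar genes together fell from 1187 to 390 CPM (log2 ratio of KO-labelled over WT -1.61, interval -1.63 to -1.58) and the type VI genes from 249 to 145 CPM (-0.78, -0.82 to -0.73), whereas the 6 type IV genes stood at 556 and 563 CPM (0.02, -0.01 to 0.04). The make-up of the libraries differed beside these values. The 3 fibroblast-like classes were 11.4% of kept cells in WT and 4.81% in the KO-labelled library, the mesothelial-like class 10.0% and 3.07%, and AT2-like cells 37.3% and 65.1%. The rest of the account therefore compares levels within a class, where CPM is taken over the UMIs of that class.

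**Figure D1:**
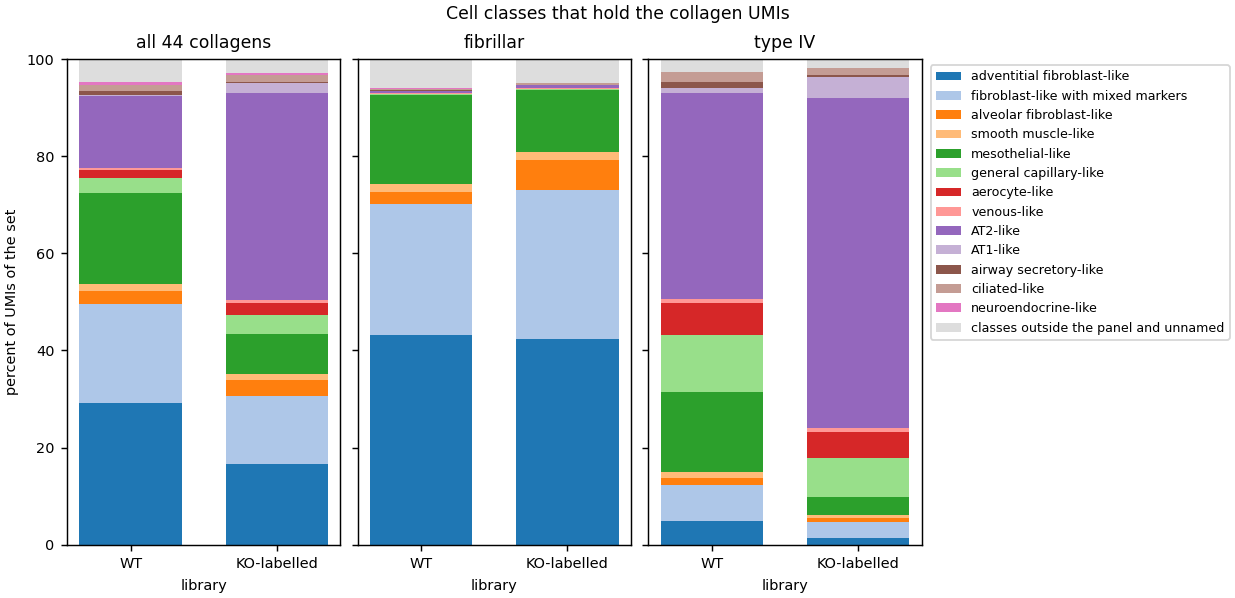
Percent of the UMIs of all 44 collagens, of the fibrillar genes and of the type IV genes (y axis) held by each cell class, for the WT and the KO-labelled library (x axis). Fibroblast-like and mesothelial-like classes hold most fibrillar UMIs in both libraries, while AT2-like cells hold 42.3% of type IV UMIs in WT and 68.0% in the KO-labelled library.

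Within most classes the summed collagens differed less than in the whole library. A gene was counted as higher or lower in a class where it had at least 20 UMIs over both libraries, differed by at least 1.5-fold and had an interval that excluded 0 on the log2 scale. Of the 44 collagens, 36 reached 20 UMIs in at least 1 of the 12 classes compared, which gave 175 gene and class pairs. Of these pairs 4 were higher and 29 lower in the KO-labelled library, against 2.89% and 5.75% of 100598 pairs over all genes. The 29 lower pairs became 4 with cells thinned to 1000 UMIs and 13 at 100 UMIs or more, and the 4 higher pairs ranged from 1 to 10 over the settings tried. The lower pairs were mainly in mesothelial-like cells (11) and in AT2-like cells (6), and the adventitial fibroblast-like class, with the most collagen mRNA per cell, had none. Another 6 members stayed under 20 UMIs over all cells of both libraries: Col2a1, Col9a1, Col9a2, Col10a1, Col19a1 and Col6a4. The cartilage gene Col2a1 had 1 UMI in all.

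**Figure D2:**
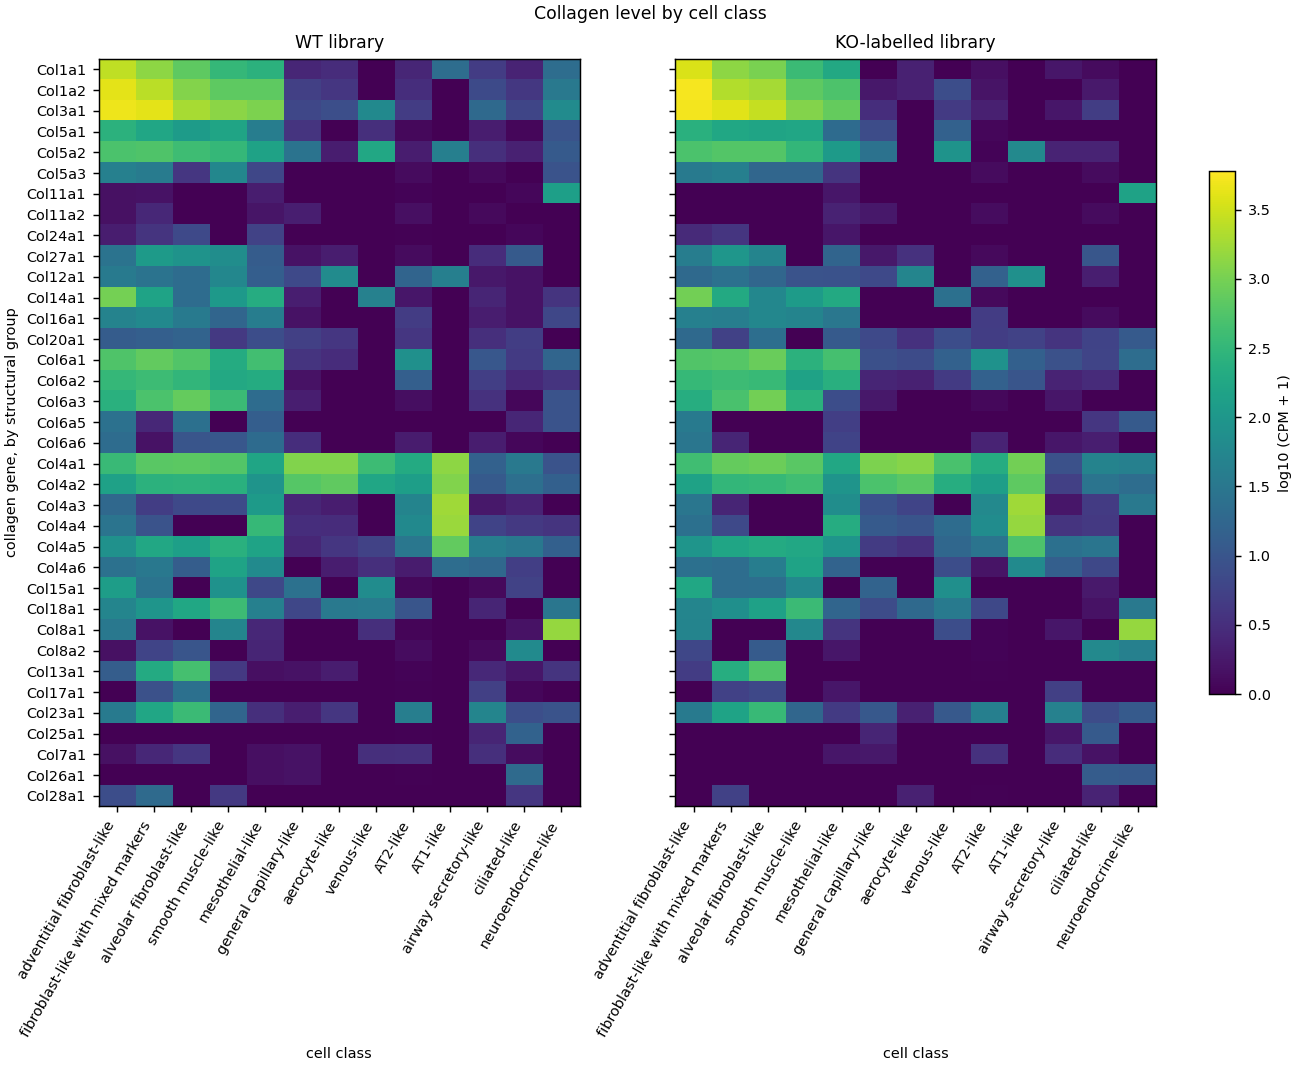
Level of each collagen that reached 20 UMIs in a class (rows, ordered by structural group) in 13 cell classes (columns), as log10 of CPM + 1, in the WT library (left) and the KO-labelled library (right). Fibrillar genes are brightest in the fibroblast-like classes, Col4a1 and Col4a2 in the capillary classes and AT1-like cells, Col4a3 and Col4a4 in AT1-like and mesothelial-like cells, and Col8a1 in neuroendocrine-like cells. AT1-like cells (16 and 45) are shown and not compared.

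The major fibrillar genes were the leading collagens of every fibroblast-like class. Col3a1, the single chain of type III collagen in distensible tissue, had 4887 CPM in WT and 5187 CPM in KO-labelled adventitial fibroblast-like cells, the cells that sheathe airways and vessels. Col1a2, the α2 chain of type I collagen, had 4238 and 5262 CPM there, and Col1a1, its α1 chain, 2644 and 3616 CPM. The fibroblast-like class with mixed adventitial and alveolar markers followed (Col3a1 4151 and 4061 CPM), then the alveolar fibroblast-like class (1916 and 2833 CPM), smooth muscle-like cells (1342 and 1197 CPM) and mesothelial-like cells (1091 and 756 CPM). These 5 classes came in the same order for Col3a1 in both libraries.

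Nearly every fibroblast-like cell carried the message. Col3a1 was seen in 99.4% of WT and 100% of KO-labelled adventitial fibroblast-like cells, or in 94.5% and 93.7% once each cell was thinned to 1000 UMIs, which left out 13 and 2 shallower cells. AT2-like cells, which should lack fibrillar collagens, showed it in 2.12% and 0.723% of cells at median depths of 6382 and 6176.5 UMIs, and in 0.315% and 0.172% after thinning. The share in fibroblast-like cells was far above this background share. A median of 51 collagen UMIs from 10 collagen genes was found per WT adventitial fibroblast-like cell, and 62 UMIs from 10 genes per KO-labelled cell.

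The proportion of the type I genes was close in the 2 libraries. Type I collagen holds more α1 than α2 chain, whereas Col1a1 gave 38.4% of type I UMIs in WT (37.6 to 39.2, exact binomial interval) and 40.7% (39.3 to 42.1) in KO-labelled adventitial fibroblast-like cells. In mesothelial-like cells it gave 27.6% (26.3 to 28.9) and 26.0% (23.4 to 28.8). These are shares of captured 3′ ends, and capture can differ between genes, so only classes are compared: Col1a1 was a smaller share of type I UMIs in mesothelial-like than in adventitial fibroblast-like cells in both libraries.

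In adventitial fibroblast-like cells (484 WT and 129 KO-labelled) no collagen of 27 with enough UMIs passed the rule in either direction, against 7.65% of 9100 genes in that class. The genes with an interval above 0 were Col1a1 (log2 ratio 0.45, 0.38 to 0.53), Col1a2 (0.31, 0.25 to 0.37), Col3a1 (0.09, 0.03 to 0.15) and Col15a1, a multiplexin of vessel and muscle basement membranes (124 and 177 CPM; 0.51, 0.16 to 0.85). All 4 differences were under 1.5-fold, and for Col15a1 the excess lay in cluster 105, with 42 UMIs in 92 WT cells and 27 UMIs in 13 KO-labelled cells. The median log2 ratio of the 27 collagens was 0.02, beside -0.01 over all genes. The clusters inside the class went both ways: Col1a1 was 2887 and 4568 CPM in cluster 101 (0.66, 0.56 to 0.76) and 3172 and 2409 CPM in cluster 104 (-0.40, -0.55 to -0.25). Summed collagens were likewise higher in cluster 101 (0.38, 0.33 to 0.42) and lower in cluster 104 (-0.33, -0.40 to -0.27), so the class value of 0.20 (0.17 to 0.23) averages clusters that differ in sign. Cluster 101, led by Dcn, Gsn, Clec3b and Mgp, held 214 of 484 WT and 77 of 129 KO-labelled cells of the class, and cluster 104, whose leading genes include the chemokine genes Ccl11, Ccl7 and Ccl2, held 150 and 33.

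In alveolar fibroblast-like cells (181 and 91) both type I genes were higher in the KO-labelled library. Col1a2 rose from 1204 to 1883 CPM (log2 ratio 0.65, 0.43 to 0.86) and Col1a1 from 700 to 1049 CPM (0.59, 0.30 to 0.87). These were the 2 of 16 collagens that passed the rule upward, against 2.87% of 4361 genes, and none passed downward, against 4.15%. Col1a1 lay just past the 1.5-fold limit, and Col3a1 just inside it (1916 and 2833 CPM; 0.56, 0.39 to 0.73). Col5a2 (407 and 580 CPM; 0.51, 0.13 to 0.89), whose chain joins the heterotypic fibrils that set fibril diameter, and Col6a1 (570 and 817 CPM; 0.52, 0.20 to 0.84) also had intervals above 0, as had the basement membrane gene Col4a1 (664 and 862 CPM; 0.38, 0.07 to 0.68). The median over the 16 collagens was 0.41, beside -0.10 over all genes of the class, and 13 of the 16 had a positive ratio. Under a stricter cell filter (1000 or more genes, mitochondrial UMIs up to 10%) the summed value went from 0.44 (0.36 to 0.53) to 0.18 (0.07 to 0.29), and leaving the cell with the most UMIs of Col1a1 out of each library gave 0.52 for that gene, under the 1.5-fold limit. The value of Col5a2, alveolar fibroblast-like, turned to -0.0689 under the stricter cell filter. Beside this, the shared fibroblast marker list summed to 23773 CPM in WT and 33747 CPM in KO-labelled cells of the class. So the higher level was not limited to collagens. The adventitial marker list (11 genes) summed to 1579 CPM in WT and 2149 CPM in KO-labelled cells, with 6 and 7 of its genes detected. The adventitial genes Scara5, Entpd2, Sfrp4 and Adh7 were at 0 in the KO-labelled cells. The part of either list in the result was not tested.

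In the fibroblast-like class with mixed markers (505 and 210) summed collagens were 1.24% and 1.21% of UMIs (-0.04, interval -0.07 to -0.00), and the sign of this value turned under 4 of the other settings tried. Of 23 collagens 1 was lower, against 4.22% of 8975 genes, and none higher, against 2.9%. That was Col28a1, a von Willebrand domain collagen best known from peripheral nerve, with 36 UMIs in WT and 3 in the KO-labelled library (19.5 and 4.34 CPM; -2.17, -4.52 to -0.51).

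**Figure D3:**
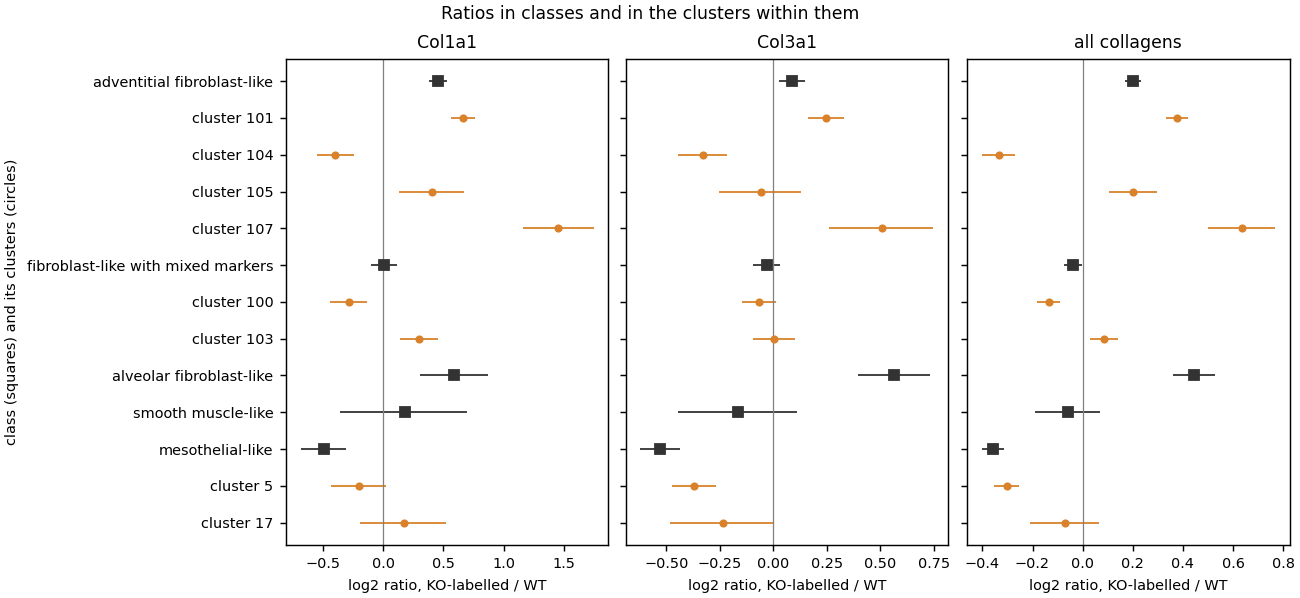
Log2 ratio of KO-labelled over WT (x axis, points, with 95% counting intervals as bars) of Col1a1, Col3a1 and all collagens summed, for 5 classes (squares) and for the clusters within those that have several (circles; y axis). Adventitial fibroblast-like clusters 101 and 104 lie on opposite sides of 0 in all 3 panels.

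The type VI genes encode the α chains of the beaded filament: Col6a1 and Col6a2 join 1 of several longer chains, of which Col6a3 is the usual one. Col6a3 was highest in alveolar fibroblast-like cells (776 and 928 CPM), above the mixed class (514 and 486 CPM), smooth muscle-like (379 and 256 CPM) and adventitial fibroblast-like cells (253 and 223 CPM). In mesothelial-like cells the long chain was nearly missing beside its partners. Col6a1 stood there at 429 and 454 CPM, Col6a2 at 211 and 244 CPM, and Col6a3 at 20.4 and 6.69 CPM, or 3.1% and 0.95% of the UMIs of the 3 chains, against 47.1% and 44.2% in alveolar fibroblast-like cells. AT2-like cells resembled the mesothelial-like class in this: Col6a1 had 77.6 and 84.0 CPM, Col6a2 12.8 and 13.7 CPM and Col6a3 10 and 7 UMIs in all. The alternative long chains Col6a5 and Col6a6 were low everywhere; their highest CPM in a class with 20 UMIs was 35 CPM for Col6a5, in KO-labelled adventitial fibroblast-like cells.

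The type IV genes fall into 3 pairs that share a chromosome region and point away from each other. Col4a1 and Col4a2, the chains of the general basement membrane network, lie on chromosome 8 and overlap by 22 bases at their starts in the GENCODE M21 annotation (mouse build GRCm38). Col4a3 and Col4a4 lie on chromosome 1 with 71 bases between them, and Col4a5 and Col4a6 on the X chromosome with 1308 bases between them. The α3, α4 and α5 chains form a network of alveolar and glomerular basement membranes, and the α5 and α6 chains one known from smooth muscle and other sites. The stretches upstream of the last 4 genes are shown because these 4, and not Col4a1 or Col4a2, were lower in KO-labelled mesothelial-like cells. They are RefSeq sequences of build GRCm38.p6, 5′ to 3′ in the direction of the gene named, cut to bases that no gene of GENCODE M21 covers, and capitals mark a GGGCGG or CCAAT match on either strand.
Col4a4: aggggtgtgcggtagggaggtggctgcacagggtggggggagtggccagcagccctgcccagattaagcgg
Col4a5: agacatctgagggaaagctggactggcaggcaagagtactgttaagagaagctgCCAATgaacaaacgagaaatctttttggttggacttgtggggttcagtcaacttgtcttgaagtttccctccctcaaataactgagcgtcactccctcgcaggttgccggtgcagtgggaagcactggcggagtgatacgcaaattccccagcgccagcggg
Col4a6: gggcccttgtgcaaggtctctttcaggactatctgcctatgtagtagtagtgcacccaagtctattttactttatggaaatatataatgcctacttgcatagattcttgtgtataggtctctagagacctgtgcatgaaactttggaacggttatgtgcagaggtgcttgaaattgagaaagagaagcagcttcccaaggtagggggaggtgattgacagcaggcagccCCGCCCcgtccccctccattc
The first is the whole stretch between Col4a4 and Col4a3 (chr1:82586850-82586920, minus strand), the next lies upstream of Col4a5 (chrX:141475169-141475384, plus strand) and the last upstream of Col4a6 (chrX:141474077-141474326, minus strand). Among the 32851 promoter windows of 250 bases upstream, 32.7% held GGGCGG, 33.8% CCAAT and 12.4% TATAAA on either strand; matches of different motifs were counted separately even where they overlapped. In those windows Col4a4 had no match to any of the 3, Col4a5 had 1 GGGCGG and 1 CCAAT, and Col4a6 had 1 GGGCGG. The GGGCGG match of Col4a5 lies in bases that M21 counts to the gene and is not printed. Of the 44 collagens 35 had an entry in the promoter table.

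The type IV make-up differed between classes, though both capillary classes held almost only Col4a1 and Col4a2. General capillary-like cells held Col4a1 at 1149 and 1092 CPM and Col4a2 at 595 and 501 CPM, and aerocyte-like cells, the large capillary cells of the gas exchange surface, 1147 and 1217 CPM and 718 and 637 CPM. In general capillary-like cells Col4a1 gave 65.7% and 67.6% of type IV UMIs and Col4a2 34.0% and 31.0%. Venous-like cells had less of both (Col4a1 382 and 485 CPM). The α3 and α4 genes were highest in AT1-like cells, the flat cells that line the air spaces: Col4a3 had 1740 and 1746 CPM and Col4a4 1634 and 1524 CPM, in only 16 and 45 cells. AT2-like cells had all but Col4a6 at moderate levels, from 201 and 219 CPM of Col4a1 to 30 and 27 CPM of Col4a5. The α6 gene was highest in smooth muscle-like cells (156 and 157 CPM), though there 1 cell gave 32.7% of its 49 WT UMIs.

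**Figure D4:**
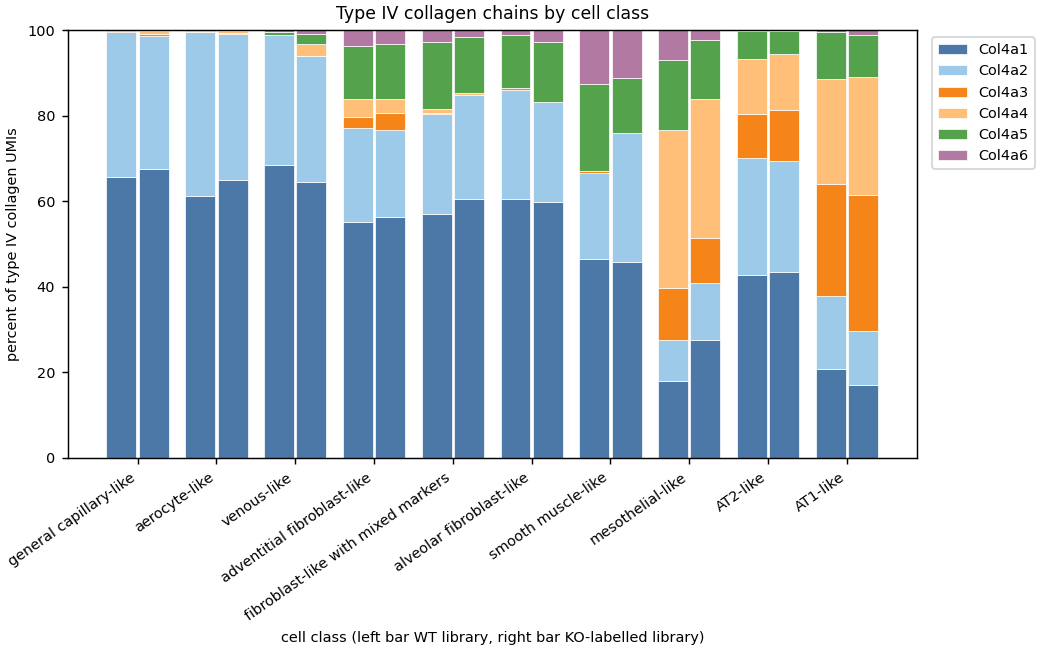
Percent of type IV UMIs (y axis) that each of the 6 chains gave in 10 cell classes (x axis), with the WT library as the left and the KO-labelled library as the right bar of each pair. Capillary classes hold almost only Col4a1 and Col4a2, and in mesothelial-like cells Col4a4 gave 36.9% in WT and 32.4% in the KO-labelled library and Col4a1 17.9% and 27.6%.

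Mesothelial-like cells, which cover the pleural surface, held the most lower collagens. In this class (1024 and 274) 11 of 25 collagens were lower and none higher in the KO-labelled library, against 8.96% lower and 3.64% higher among 11169 genes. The median over the 25 was -0.61, beside -0.09 over all genes. The lower genes were the 4 type IV genes Col4a3 to Col4a6, the fibril gene Col5a1, the rare fibrillar gene Col24a1, the multiplexins Col15a1 and Col18a1, and Col6a3, Col6a5 and Col6a6.

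Col4a4 fell from 344 to 217 CPM (-0.66, -0.84 to -0.49), Col4a3 from 114 to 70.9 CPM (-0.68, -0.99 to -0.38) and Col4a5 from 155 to 93.7 CPM (-0.73, -0.997 to -0.46). Col4a6 fell further, from 64.0 to 14.7 CPM (-2.12, -2.82 to -1.50). Col4a1 (167 and 185 CPM; 0.15, -0.05 to 0.35) and Col4a2 (90.1 and 89.6 CPM; -0.01, -0.30 to 0.27) did not pass. Col4a6 was seen in 20.2% of WT and 6.57% of KO-labelled cells, and in 5.99% (4.61 to 7.62) and 1.11% (0.23 to 3.21) after thinning to 1000 UMIs, against 0.577% and 0.258% of AT2-like cells before and 0.0786% and 0.0172% after thinning. Col4a4 was seen in 65.4% and 58.4% of mesothelial-like cells, and after thinning in 29.5% (26.8 to 32.4) and 20.7% (16.1 to 26.1). Over all settings tried the log2 ratios of Col4a3, Col4a4 and Col4a5 lay between -0.80 and -0.57 and that of Col4a6 between -2.59 and -1.60. AT2-like cells, whose markers were higher in the KO-labelled class, held Col4a4 at 60.5 and 66.9 CPM and Col4a3 at 48.9 and 59.9 CPM.

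Col18a1, the precursor of endostatin, fell from 43.4 to 16.1 CPM in mesothelial-like cells (-1.44, -2.11 to -0.82) and Col5a1 from 38.5 to 20.1 CPM (-0.94, -1.55 to -0.38). Col6a6 had 99 and 7 UMIs (-2.11, -3.46 to -1.01), Col6a3 100 and 10 UMIs (-1.61, -2.71 to -0.67) and Col6a5 60 and 6 UMIs (-1.61, -3.11 to -0.40). Col15a1 had 27 UMIs in WT, 11 of them from 1 cell, and 0 in the KO-labelled library. With 3 UMIs set in place of the 0, Col15a1 was 2.74-fold lower over the class, a value that is not a bound. Col24a1 had 22 UMIs and 1 UMI (-2.75, -8.11 to -0.12). The major fibrillar genes were lower by less than 1.5-fold: Col3a1 1091 and 756 CPM (-0.53, -0.62 to -0.44), Col1a1 264 and 187 CPM (-0.50, -0.69 to -0.31) and Col1a2 692 and 533 CPM (-0.38, -0.49 to -0.27).

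The class joined 2 clusters in different proportions, and the lower collagens split between them. Cluster 5 (893 and 257 cells) was led by the pleural genes Rarres2, Gpc3 and Msln, and cluster 17 (131 and 17 cells) by Dcn, Lgals1 and Rarres2 with Fn1, the fibronectin gene, among its leading genes. Within cluster 5 alone Col4a4 (-0.80, -0.97 to -0.62), Col4a3 (-0.80, -1.12 to -0.50), Col4a5 (-0.69, -0.96 to -0.42), Col4a6 (-2.07, -2.83 to -1.39), Col18a1 (-1.84, -3.20 to -0.72), Col6a6 (-2.43, -4.35 to -1.01) and Col6a3 (-1.67, -3.35 to -0.34) were also more than 1.5-fold lower, as was Col5a1 (-0.84, -1.49 to -0.24). The interval for Col1a1 included 0 in both clusters, at -0.20 (-0.43 to 0.03) in cluster 5 and 0.17 (-0.19 to 0.52) in cluster 17, so neither cluster alone gave the class value of -0.50. All 27 UMIs of Col15a1 and 21 of the 22 WT UMIs of Col24a1 came from cluster 17, where 17 KO-labelled cells are too few for a count of 0 to set a fold. Col6a5 had 53 of its 60 WT UMIs and 4 of its 6 KO-labelled UMIs there, with an interval that included 0 (-0.57, -2.50 to 0.87). Mesothelial markers differed as well: Wt1 stood at 594 and 381 CPM, Muc16 at 760 and 527 CPM and Krt19 at 872 and 652 CPM. Upk3b was close (1433 and 1428 CPM), and Msln alone among these markers was higher in the KO-labelled library (2484 and 2772 CPM). AT2 markers (11 genes, all detected) summed to 3121 CPM in WT and 10062 CPM in KO-labelled mesothelial-like cells. The part of either marker list in the class result was not tested.

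**Figure D5:**
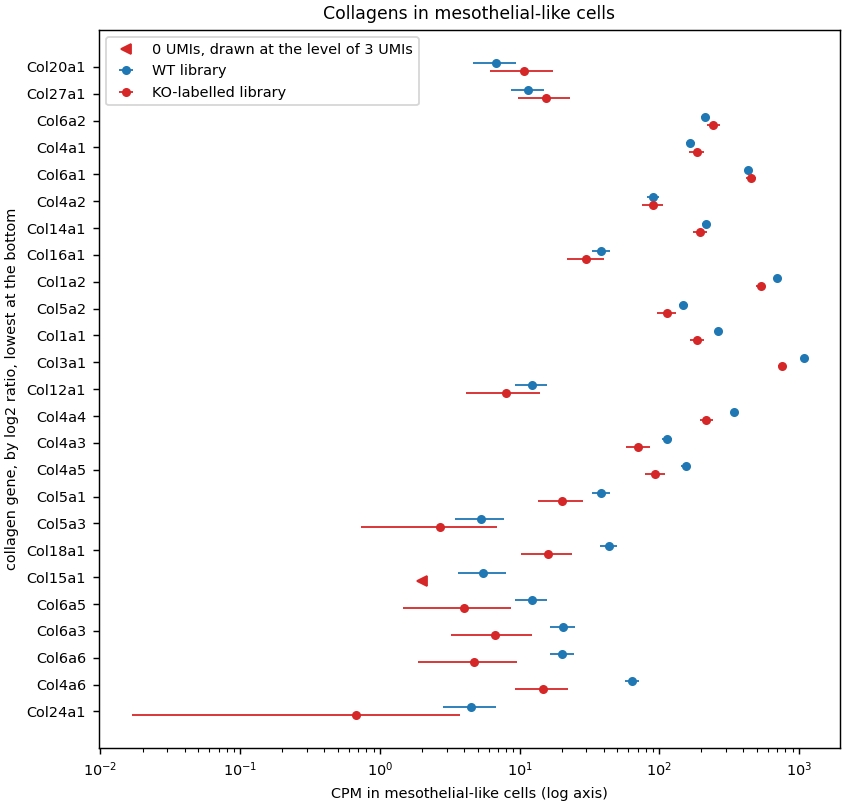
Level in mesothelial-like cells of the 25 collagens with at least 20 UMIs (y axis, sorted by log2 ratio), in CPM on a log axis (x axis), for the WT and the KO-labelled library, with exact Poisson 95% intervals as bars. Col4a6 stands at 64.0 and 14.7 CPM, while Col6a1, Col6a2, Col4a1 and Col4a2 lie close together; the arrowhead is the level that 3 UMIs would give for Col15a1.

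Fibril-associated collagens bind the surface of fibrils. Col14a1, which regulates early fibril growth, was highest in adventitial fibroblast-like cells (962 and 938 CPM; -0.04, -0.18 to 0.10), with 216 and 197 CPM in mesothelial-like cells. Col16a1 reached 61.4 and 40.5 CPM in the mixed fibroblast-like class. Col12a1 was found outside the mesenchyme too, at 66.4 and 51.0 CPM in aerocyte-like cells (-0.38, -0.98 to 0.20). None of these passed the rule in any fibroblast-like class.

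The multiplexins, basement membrane collagens with interrupted helices, were highest in different classes. Col18a1 was highest in smooth muscle-like cells (382 and 371 CPM), followed by alveolar fibroblast-like cells (174 and 144 CPM). Col15a1 was highest in adventitial fibroblast-like cells and stood at 67.8 and 75.1 CPM in venous-like cells. WT smooth muscle-like cells also held 26 UMIs of Col15a1, 6 of them in 1 cell. In smooth muscle-like cells (88 and 35) 1 of 17 collagens was higher and 1 lower, against 4.93% and 6.43% of 3918 genes. Col4a2 rose from 252 to 421 CPM (0.74, 0.20 to 1.27), where 1 cell gave 21.6% of its 51 KO-labelled UMIs and the ratio without the top cell of each library was 0.51. Col27a1, a fibrillar collagen of cartilage and other tissues, had 22 UMIs in WT and 0 in the KO-labelled cells. It was 2.83-fold lower with 3 UMIs set in place of the 0. AT2 markers summed to 13021 and 49786 CPM in this class, and 1 cell gave 40.5% of the 84 KO-labelled UMIs of Col1a2.

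Membrane-spanning and short-chain collagens differed in level between classes, and Col23a1 was not limited to a single class. Col13a1, a membrane collagen of cell adhesion sites, stood at 460 and 558 CPM in alveolar fibroblast-like cells and at 12.2 and 3.65 CPM in adventitial fibroblast-like cells. Col23a1, another membrane collagen, had 372 and 353 CPM in the alveolar class and was the leading collagen of airway secretory-like cells at 50.9 and 43.97 CPM. Over the whole library Col23a1 stood at 36.8 CPM in WT and 38.2 CPM in the KO-labelled library. Col8a1, a short-chain collagen known from endothelium and vessel wall, was the leading collagen of neuroendocrine-like cells, the rare hormone-producing airway cells, at 1506 and 1532 CPM (0.02, -0.25 to 0.29), in 76 of 80 and 20 of 20 cells. AT2-like cells showed it in 0.0786% and 0.0516% of cells. The same class held Col11a1, a minor fibrillar chain best known from cartilage, at 133 and 150 CPM. The KO-labelled value rests on 14 UMIs, 6 of them from 1 cell. Ciliated-like cells had Col8a2 at 63.6 and 58.5 CPM and Col26a1 at 19.4 and 11.5 CPM.

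Endothelial classes showed few differences. General capillary-like (1272 and 853) and aerocyte-like cells (569 and 419) had 4 collagens each with 20 UMIs, none of which passed the rule, against 8.81% of 9687 and 5.98% of 7978 genes. Col4a2 had intervals below 0 in both, at -0.25 (-0.39 to -0.11) and -0.17 (-0.34 to -0.01), and Col4a1 did not (-0.07, -0.17 to 0.02, and 0.09, -0.04 to 0.21). In venous-like cells (200 and 111) 2 of 7 collagens were lower and none higher, against 6.1% and 3.69% of 5722 genes. Col5a2 fell from 183 to 85.4 CPM (-1.10, -1.81 to -0.44), and Col3a1 had 27 UMIs and 1 UMI (-4.16, -9.51 to -1.56), with 10 of the 27 in 1 cell. Shared fibroblast markers summed to 2258 and 1400 CPM in venous-like cells, with 11 and 9 of 14 detected and Lum and Pdgfra at 0 in the KO-labelled cells. Venous markers differed too: Ackr1 stood at 310 and 85.4 CPM, Selp at 1932 and 881 CPM and Vcam1 at 4958 and 2722 CPM. Only Nr2f2 (368 and 413 CPM) and Amigo2 (140 and 215 CPM) were higher in the KO-labelled library. AT2 markers summed to 1708 and 23231 CPM in the class, and genes typical of other compartments took 1.97% and 8.29% of its UMIs. The part of these differences in the collagen values was not tested.

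Col1a1, Col1a2 and Col3a1 lay at trace levels in AT2-like cells. AT2-like cells had 6 of 21 collagens lower and none higher, against 5.89% and 1.09% of 13833 genes. The lower genes were Col3a1 (3.69 and 1.14 CPM), Col1a2 (2.14 and 0.559 CPM), Col1a1 (1.51 and 0.426 CPM), Col5a2, Col14a1 and Col18a1 (8.76 and 5.67 CPM; -0.63, -0.91 to -0.35). The ratios of Col1a1, Col1a2 and Col3a1 lay between -1.94 and -1.69, beside -1.61 for fibrillar genes over the whole library. In WT AT2-like cells 50.3% of the UMIs of these 3 genes were Col3a1 (42.8 to 57.7), beside 47.3% in the whole WT library. Whether AT2-like cells transcribe them cannot be told apart from free RNA by these counts. Type IV genes, which AT2-like cells do hold, were close: Col4a3 48.9 and 59.9 CPM (0.29, 0.19 to 0.39), Col4a4 60.5 and 66.9 CPM (0.15, 0.05 to 0.24), Col4a1 201 and 219 CPM (0.12, 0.07 to 0.17).

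In airway secretory-like cells (347 and 97) 4 of 10 collagens were lower and none higher, against 12.5% and 0.797% of 9035 genes; the median of all genes was -0.30 there and Scgb1a1 took 448465 and 514138 CPM, and TMM scaling raised every ratio by 0.30. The 4 were Col4a5 (160 and 35 UMIs, log2 ratio -0.72, -1.30 to -0.19), Col4a2 (43 and 6 UMIs, -1.37), Col3a1 and Col1a2. Col3a1 had 76 UMIs and 1 UMI, 33 of the 76 in 1 cell. Col1a2 had 24 and 0 UMIs, 2.89-fold lower with 3 UMIs set in place of the 0. For Col4a5, airway secretory-like, TMM scaling gave -0.43, under 1.5-fold, and thinning turned the sign (0.38), and for Col4a2, airway secretory-like, the stricter cell filter did (0.0214). In ciliated-like cells (958 and 585) 1 of 18 was higher, Col4a3 with 8 and 13 UMIs (1.39, 0.01 to 2.86), and 3 were lower, against 2.41% and 4.06% of 12276 genes: Col26a1 (-0.75, -1.30 to -0.23), Col15a1 (27 and 3 UMIs) and Col1a2 (18 and 3 UMIs). With doublets kept the value of Col4a3, ciliated-like, turned to -0.0459. In neuroendocrine-like cells 1 of 3 was lower and none higher, against 4.05% and 3.61% of 4544 genes; this was Col3a1, whose 24 UMIs all came from 1 WT cell.

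The machinery around the collagens was read from 8 lists of 81 genes in all. In adventitial fibroblast-like cells 2 of 65 measured genes were higher and none lower, against 7.65% of all genes called in either direction. P4ha2, a subunit of prolyl 4-hydroxylase, which stabilises the triple helix, had 41.4 and 65.7 CPM (0.67, 0.06 to 1.25). Of the collagen-binding partners Sparc, a chaperone of secreted collagen, stood at 4731 and 7066 CPM (0.58, 0.52 to 0.63), just inside the 1.5-fold limit, and Fn1 at 1414 and 1086 CPM (-0.38, -0.51 to -0.25). Lysyl oxidases, which cross-link fibrils, had Lox at 126 and 131 CPM and Loxl1 at 396 and 389 CPM. In alveolar fibroblast-like cells 4 of 46 were higher and 1 lower, against 2.87% and 4.15% of all genes: Sparc (2739 and 4187 CPM; 0.61, 0.47 to 0.75), Dcn (67.9 and 221 CPM; 1.70, 0.93 to 2.51), Mmp2, a gelatinase gene (295 and 657 CPM; 1.15, 0.76 to 1.55), and P4ha1 (168 and 276 CPM; 0.71, 0.14 to 1.29) were higher and the integrin gene Itga1 was lower (25 and 5 UMIs; -1.42, -3.16 to -0.01). Pcolce2, an enhancer of propeptide cleavage, stood at 2618 and 2436 CPM there.

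In mesothelial-like cells 1 of 63 machinery genes was higher and 8 lower, against 3.64% and 8.96% of all genes. Fn1 fell from 151 to 13.4 CPM (-3.50, -4.22 to -2.86), with 730 of its 740 WT UMIs and 13 of its 20 KO-labelled UMIs in cluster 17, where it stood at 1016 and 161 CPM (-2.66, -3.57 to -1.87). Tll1, a tolloid protease that trims procollagens, fell from 188 to 116 CPM (-0.69, -0.93 to -0.46). Folding genes went both ways and none was called higher. Serpinh1, the collagen chaperone Hsp47, stood at 680 and 977 CPM (0.52, 0.43 to 0.61) and P4hb at 227 and 296 CPM (0.38, 0.22 to 0.54), both under 1.5-fold, while Colgalt1, a collagen galactosyltransferase, fell from 36.5 to 18.7 CPM (-0.96). The folding list of 19 genes had 16 measured, 1 lower and none higher, with a median of 0.04. The basement membrane partners, laminins and nidogens among them, had 3 of 15 lower, beside the same 8.96% of all genes, and a median of -0.29.

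Reads of neighbouring genes could limit a few values, which was not tested. In the last 1000 bases of Col4a1, Col4a3 and Col18a1 another annotated gene lies on the opposite strand, and whether the counting used strand is not given in the sources used here.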

How the data were processed

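Single-cell 3′ libraries of CD45.2-negative lung cells were read from the deposited filtered matrices. Their values are raw UMI counts per gene and cell, per the file headers; the authors used Cell Ranger (versions 7.0.0 and 7.1.0 are named) and build mm10, per the submitters' processing notes. Whether counting used strand is not given in the sources used here. Barcodes passed with 500 or more genes and a mitochondrial share of up to 15%, and predicted doublets (expected 8%, called 5.69% in WT and 1.92% in the KO-labelled library) were removed. Both libraries were clustered together with scanpy 1.11.5 (2000 variable genes, 30 principal components, 15 neighbours, Leiden resolution 1, leidenalg 0.10.2, python 3.11.15), leaving the collagens out. Fibroblast clusters were split again at resolution 0.5, a step added after seeing the data. Of 34 clusters 27 were named, and classes with at least 20 cells per library were compared.

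Counts were summed per class and library. Each log2 ratio of CPM has an exact conditional binomial 95% interval, shares have Clopper-Pearson intervals and levels exact Poisson intervals (scipy 1.17.1); all cover counting error only. A call needed at least 20 UMIs over both libraries, a difference of at least 1.5-fold and an interval without 0. Genes at 0 in a library were set against a floor of 3 UMIs per library. The members and the gene lists were chosen with earlier results of these data known. Collagens were named in a class where they were called, or had at least 50 CPM in 1 library and 20 UMIs over both; of each other list the 2 highest and 2 lowest log2 ratios at 50 CPM or more could be named, and names outside this rule were chosen after their values were seen. Intervals were tried on simulated counts that held counting error only. Those counts lack the clumping of UMIs in single cells, so they do not check the intervals on the real data. Alternatives were other cell filters, resolutions, doublets kept, clustering each library apart, collagens kept in clustering, TMM factors (edgeR 4.0.16), other totals, thinning to 1000 UMIs, means over cells and other call limits; leaving out the smaller mesothelial-like cluster or each gene's top cell was chosen after seeing the data. AT1-like cells were too few to compare.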

Additional observations from a re-analysis of the deposited data

Results flagged for a closer look

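A set of 4 collagen genes was called higher in one cell class and lower in another, and the difference between classes was not tested, since each class has 1 library per genotype. Col1a1 had a log2 ratio of 0.5851 in alveolar fibroblast-like cells and -1.8228 in AT2-like cells, where it rests on 38 and 16 UMIs. Col1a2 had 0.6452 in alveolar fibroblast-like cells, and -1.9374 in AT2-like, -1.5310 (with 3 UMIs in place of 0) in airway secretory-like and -1.8972 in ciliated-like cells. Col4a2 had 0.7416 in smooth muscle-like and -1.3723 in airway secretory-like cells. Col4a3 had 1.3882 in ciliated-like cells, from 8 and 13 UMIs, and -0.6795 in mesothelial-like cells.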

How the results depend on the processing

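No paired analysis was possible because each genotype has 1 library. Alternatives for the log2 ratio of summed collagens moved several class values, and the cause was not tested. In the class with mixed markers the sign turned with doublets kept (0.0266), with the 50 most abundant genes out of the totals (0.0188), with cells thinned to 1000 UMIs (0.0495) and as a mean over cells (0.0688), and the value was -0.0738 with the libraries clustered apart. Adventitial fibroblast-like cells gave 0.32 thinned and 0.27 as a mean over cells, and alveolar fibroblast-like cells 0.18 under the stricter cell filter and 0.61 at Leiden resolution 0.5. Smooth muscle-like cells gave -0.41 at that resolution and -0.50 clustered apart. Mesothelial-like cells gave -0.41 under the looser filter, -0.27 with TMM factors, -0.25 thinned, -0.30 in the largest cluster alone and -0.31 as a mean over cells. General capillary-like cells gave -0.22 and aerocyte-like cells -0.34 under the stricter filter, and aerocyte-like cells 0.13 thinned and 0.12 as a mean over cells. The 4 higher pairs became 9 under the stricter filter, 9 at resolution 0.5, 2 clustered apart, 7 with TMM factors, 10 with no low-count filter, 1 at a fold of 2 and 1 without each gene's top cell. The 29 lower pairs became 4 thinned and 13 at 100 UMIs or more. Single genes also changed sign. The values were -0.0689 for Col5a2, alveolar fibroblast-like, and 0.0214 for Col4a2, airway secretory-like, under the stricter filter. Thinning gave 0.0550 for Col4a2, aerocyte-like (0.0136 as a mean over cells), -0.0309 for Col4a4, AT2-like, and 0.38 for Col4a5, airway secretory-like. The others were 0.0572 for Col1a2, fibroblast-like with mixed markers, as a mean over cells, -0.18 for Col14a1, fibroblast-like with mixed markers, clustered apart, and -0.0459 for Col4a3, ciliated-like, with doublets kept. Genes under about 100 UMIs rest on few molecules, and a single cell can hold most of them.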
